A study of Mus musculus with 8 samples.

Results

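The 40 genes described here copy the genome or serve that work: they license replication origins, unwind and copy DNA, join the new strands, make nucleotides, rebuild chromatin, or move cells into S phase. They were chosen by name from the table of gene symbols and are 40 of its 55418 symbols. All 40 had enough counts to be tested, so they are also 40 of the 17522 genes tested.

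In G1, the origin recognition complex, Cdc6 and Cdt1 load the Mcm2 to Mcm7 helicase on DNA, and in S phase Cdc45 and the GINS complex turn it into an active helicase. Polymerases bound to the PCNA clamp then copy the strands, and ribonucleotide reductase and thymidylate synthase supply the deoxynucleotides. Many of these genes are switched on by E2F factors as a cell leaves G1, and in the colon such cells lie mainly in the lower crypt.

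Total RNA of distal colon was sequenced from 8 C57BL/6 mice aged 8 to 10 weeks, with 2 mice in each of 4 groups. The ΔNFκB mice carry an allele of NAIL, a long noncoding RNA, that is named for NF-κB, and which bases differ from WT, and whether the mice were littermates, is not stated. ΔNFκB DSS mice and WT DSS mice were given 3% dextran sulfate sodium (DSS), an agent that injures the colon lining, for 4 days and then plain water for 4 days. ΔNFκB untreated mice and WT untreated mice were given none, and no other allele or agent is stated for any group. The comparisons ask how the replication genes respond to DSS in each genotype, how the genotypes differ with and without DSS, and whether the responses differ. They draw on the same 8 mice and are not independent of each other.

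The libraries held 9229637 to 16935724 counts, of which 7037 to 13646 fell on the 40 genes. Log2 levels of mice of one group correlated with r of 0.974 to 0.981 across genes, and genes are not independent replicates. Genes made of ribosomal RNA sequence took 3.46% to 6.70% of the counts in DSS mice and 0.686% to 1.83% in untreated mice. By Y-linked genes, all 4 DSS mice and WT untreated mouse 1 were female, and both ΔNFκB untreated mice and WT untreated mouse 2 were male. The 11 epithelial markers and the 10 smooth muscle markers fixed for the check of the tissue were detected in all 8 mice. In bulk tissue, fewer cells in S phase and less RNA per cell cannot be told apart.

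Promoter sequences are shown because many genes of this kind are switched on by E2F factors. RefSeq promoters on GRCm38.p6, 250 bases before to 50 after each RefSeq start, were found for 33 of the 40 genes, in 38 windows. Some of these starts lie inside the annotated gene. For windows with the E2F-type letters searched below, this holds for Lig1 (1543 bases inside), Uhrf1 (992), Mcm7 (539) and Cdc6 (350), among others. Mcm4, Rfc2, Ccne2, Gins1, Gins2, Gins4 and Pole had no entry. E2F-type letters, searched as TTTCCCGC, TTTGGCGC, TTTGCCGC or TTTCGCGC on both strands, were in 13 of the 33 genes (39.4%) and in 704 of 27025 genes with a promoter (2.6%). The letters CCAAT, bound by the factor NF-Y, were in 20 of the 33 genes (60.6%) and in 41.1% of all genes. A match says only that the letters are in the window. Genes with E2F-type letters that rose with DSS in ΔNFκB mice, by the test given below, were Cdc6, Cdt1, Lig1, Mcm3, Mcm5, Mcm6, Mcm7, Orc1 and Uhrf1. Those with the letters that did not change there by that test were Gins3, Pola1, Pold1 and Rfc3. Genes with a window but none of these letters that rose were Ccne1, Cdc45, Chaf1a, Chaf1b, E2f1, Fen1, Mcm10 and Mcm2. Orc6, Pola2, Rfc5, Rpa1, Rrm1, Rrm2, Tk1 and Tyms also rose without them. Genes with a window and without the letters that did not change were Pcna, Prim1, Rfc4 and Rpa2. Most genes thus rose both with and without the letters, and a link of the letters to the response was not tested. The sequences that follow run 5′ to 3′ on the gene's strand, from 220 bases before to 30 after the start, with E2F-type letters in capitals. Rrm2 and Cdt1 had the smallest p with DSS in ΔNFκB and in WT mice, and Mcm6, Mcm5 and Orc1 are helicase and origin genes with matches.
Rrm2 (chr12:24708034-24708283, plus strand): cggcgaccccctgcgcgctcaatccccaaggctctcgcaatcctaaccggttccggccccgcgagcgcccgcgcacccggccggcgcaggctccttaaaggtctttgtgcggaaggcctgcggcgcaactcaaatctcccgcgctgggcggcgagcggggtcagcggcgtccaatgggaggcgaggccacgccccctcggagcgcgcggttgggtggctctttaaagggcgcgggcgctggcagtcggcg
Cdt1 (chr8:122567795-122568044, plus strand): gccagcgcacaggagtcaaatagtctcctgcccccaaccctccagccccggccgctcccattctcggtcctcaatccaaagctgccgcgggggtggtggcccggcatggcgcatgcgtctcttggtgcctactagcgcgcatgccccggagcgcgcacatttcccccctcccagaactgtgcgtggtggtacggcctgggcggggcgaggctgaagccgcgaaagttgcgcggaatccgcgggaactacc
Mcm6 (chr1:128359676-128359925, minus strand): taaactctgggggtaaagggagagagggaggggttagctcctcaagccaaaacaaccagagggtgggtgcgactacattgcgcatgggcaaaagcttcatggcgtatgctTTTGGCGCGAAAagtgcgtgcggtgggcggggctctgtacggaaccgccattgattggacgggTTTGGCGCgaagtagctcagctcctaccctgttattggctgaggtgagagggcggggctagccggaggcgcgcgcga
Mcm5 (chr8:75109289-75109538, plus strand): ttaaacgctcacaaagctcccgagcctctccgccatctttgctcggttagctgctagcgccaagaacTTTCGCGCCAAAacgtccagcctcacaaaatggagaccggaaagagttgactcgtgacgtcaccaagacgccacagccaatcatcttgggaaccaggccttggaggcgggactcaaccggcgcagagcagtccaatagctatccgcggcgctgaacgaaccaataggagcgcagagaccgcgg
Orc1 (chr4:108579234-108579483, plus strand): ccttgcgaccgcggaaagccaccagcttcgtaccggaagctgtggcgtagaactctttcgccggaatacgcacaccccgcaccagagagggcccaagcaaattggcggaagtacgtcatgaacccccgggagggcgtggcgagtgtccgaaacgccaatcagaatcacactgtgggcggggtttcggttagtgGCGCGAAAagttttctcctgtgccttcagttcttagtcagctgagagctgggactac
In Mcm6, TTTGGCGC at base -110 overlaps a TTTCGCGC on the other strand, and TTTGGCGC stands again at base -47. In Mcm5, TTTCGCGC at base -153 overlaps a TTTGGCGC on the other strand, and in Orc1 the match is a TTTCGCGC on the other strand at base -27. The window of Rrm2 holds none of these letters, and in Cdt1 a TTTGGCGC starts at base 33, past the end of the printed window.

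With DSS, 30 of the 40 genes rose in ΔNFκB mice and 0 fell. Of all genes tested, 35.4% changed in this comparison, 16.2% higher and 19.2% lower, and a call here is an adjusted p under 0.05 from edgeR's quasi-likelihood test with Benjamini-Hochberg adjustment over all genes. The median log2 fold change of the 40 genes was 1.06, against -0.04 for all genes tested. The 30 that rose span the ribonucleotide reductase subunit Rrm2 at 2.32 (5-fold) and the thymidylate synthase gene Tyms at 0.44 (1.36-fold). The other 10 had log2 fold changes of -0.07 to 0.73, and 32 of the 40 had an unadjusted p under 0.05. Both DSS mice were above both untreated mice for 37 of the 40 genes, where 71.7% of all genes had groups that did not overlap in either direction. DESeq2 called 28 of the 40 genes and limma-voom 30, all higher. All DSS mice of this genotype were female and both untreated mice male: with a term for sex, which rests on the pair of WT untreated mice, 25 of the 30 remained called, and Cdt1, E2f1, Gins1, Orc1 and Tyms did not.

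In WT mice 12 of the 40 genes changed with DSS, 6 higher and 6 lower. Of all genes tested, 36.1% changed, 17.3% higher and 18.8% lower, so the 15.0% of the 40 genes that rose is near the share of all genes. As many of the 40 genes fell as rose, so the share that fell was no larger than the 18.8% of all genes. The genes that rose were Ccne1, Cdt1, Chaf1a, Lig1, Pola2 and Rrm2, and those that fell were Pcna, Pola1, Prim1, Rfc3, Rfc4 and Tyms. The median log2 fold change was 0.16, against 0.0024 for all genes. The groups did not overlap for 25 of the 40 genes, 16 of them higher with DSS, against 71.4% of all genes in either direction. The 6 genes that rose in WT mice also rose in ΔNFκB mice. Of the 6 that fell in WT mice, Tyms rose in ΔNFκB mice and the other 5 were not called there.

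The WT calls depended on single libraries, on the scaling and on a term for sex. They numbered 6 without WT DSS mouse 1 and 3, all higher, without WT DSS mouse 2. Without WT untreated mouse 2 they numbered 8, all higher. Both WT DSS mice were female, and of the WT untreated mice mouse 1 was female and mouse 2 male. With a term for sex, 8 of the WT calls remained, and the falls of Prim1, Rfc3, Rfc4 and Tyms were no longer called. The summed level of the 11 epithelial markers was 8692 and 8089 CPM in WT DSS mice, against 11540 and 14220 CPM in WT untreated mice (CPM, counts per 1000000 counts of the library after TMM scaling). With libraries scaled to those markers instead, the log2 fold change with DSS in WT mice had a median of 0.61 over all genes and of 0.77 over the 40 genes, and 23 of the 40 were called higher and 0 lower. Of all genes, 45.4% were then called higher and 4.63% lower. Of the 15 genes of the 40 below 0 in the fit as reported, 11 stood above 0 under that scaling, among them Tyms at 0.12 and Pola1 at 0.0008, and 27 of the 40 had an unadjusted p under 0.05.

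**Figure D1:**
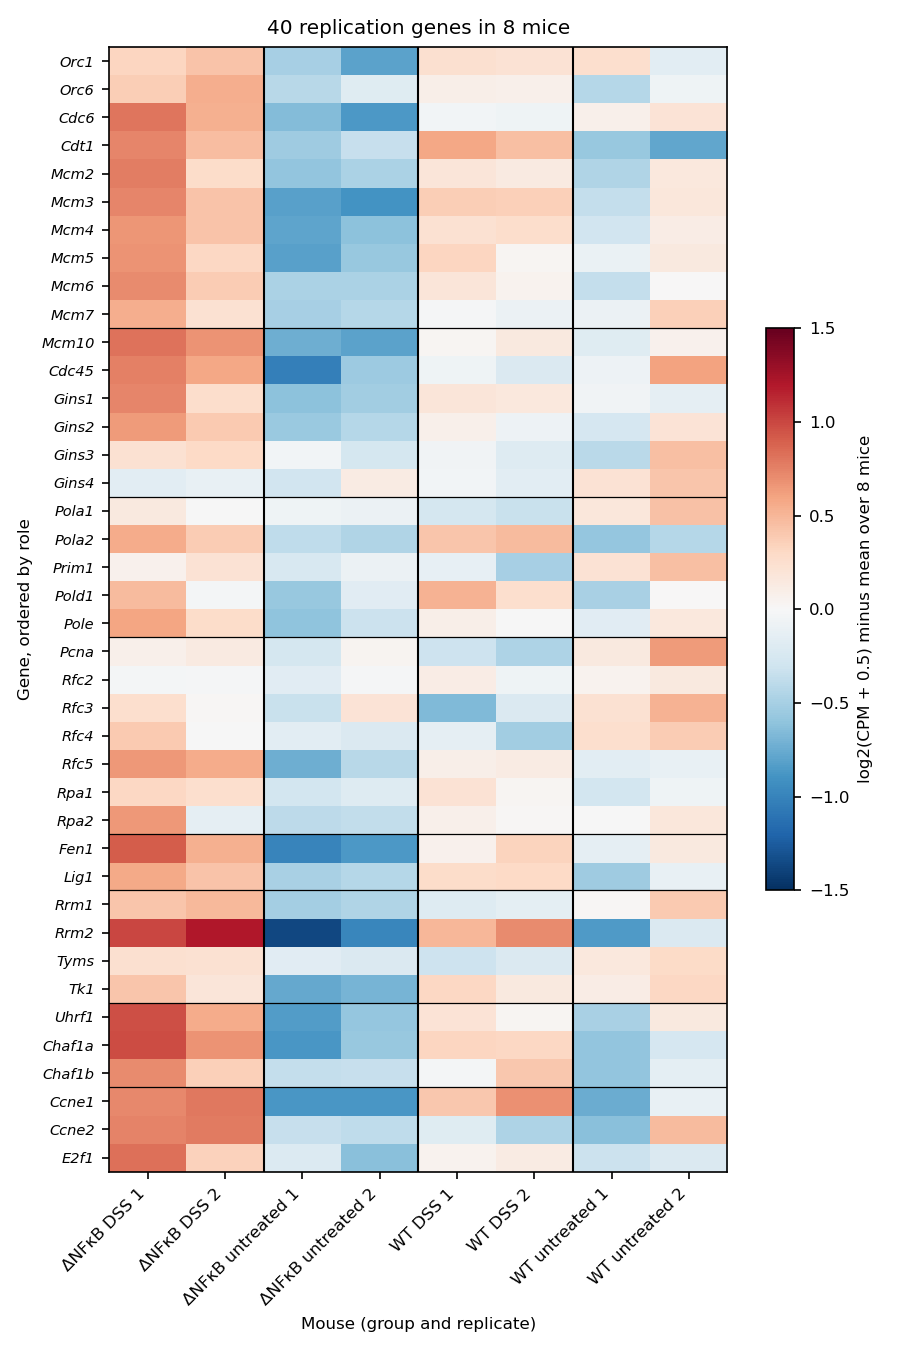
Each row is 1 of the 40 genes, in order of role, and each column is 1 mouse; colour gives log2(CPM + 0.5) minus the gene's mean over the 8 mice. The ΔNFκB DSS mice held the highest group mean for 32 genes and the ΔNFκB untreated mice the lowest for 31.

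Among single mice, ΔNFκB DSS mouse 1 held the highest value of 25 genes and ΔNFκB DSS mouse 2 that of 6. WT untreated mouse 2 held the highest value of 8 genes. WT DSS mice had the highest group mean for 1 gene and WT untreated mice for 7. The summed level of the 40 genes was 1181 and 1042 CPM in the ΔNFκB DSS mice against 554.1 and 606.8 CPM in the ΔNFκB untreated mice. In WT the sum was 857.3 and 828 CPM in the DSS mice against 711.1 and 913.7 CPM in the untreated mice. The sums of the WT groups overlapped and those of the ΔNFκB groups did not. Per kilobase of exon, averaged over the 8 mice, the clamp gene Pcna had the highest level of the 40 at 25.1 CPM per kb, followed by Rrm2 at 11.3 and Mcm6 at 10.4, and Gins3 had the lowest at 1.29.

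The 10 genes of origin recognition and licensing all rose with DSS in ΔNFκB mice, with log2 fold changes of 0.79 to 1.52. Cdt1 (chr8:122568015-122573554), which brings the helicase to origins, had 16.98 and 13.99 CPM in the ΔNFκB DSS mice against 6.77 and 7.80 CPM in the ΔNFκB untreated mice. In WT, Cdt1 had 15.2 and 13.9 CPM in the DSS mice against 6.62 and 5.62 CPM in the untreated mice. Each DSS mouse was above each untreated mouse in both genotypes. The log2 fold change of Cdt1 with DSS was 1.09 ± 0.19 in ΔNFκB mice (SE, edgeR adjusted p = 0.00336) and 1.25 ± 0.19 in WT mice (adjusted p = 0.00214). The difference of the 2 responses was -0.16 ± 0.27 (adjusted p = 0.688). Cdt1 was the only licensing gene called in WT mice.

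Cdc6 (chr11:98907801-98923940), the ATPase that loads the helicase together with Cdt1, had 12.9 and 10.6 CPM in the ΔNFκB DSS mice against 4.41 and 3.74 CPM in the ΔNFκB untreated mice. In WT, Cdc6 had 6.94 and 6.86 CPM in the DSS mice against 7.57 and 8.37 CPM in the untreated mice. The ΔNFκB DSS mice were above the other 6 mice and the ΔNFκB untreated mice below them. Cdc6 rose with DSS in ΔNFκB mice by 1.52 ± 0.20 on the log2 scale (adjusted p = 0.00116), and its log2 fold change in WT mice was -0.21 ± 0.20 (adjusted p = 0.432). The origin recognition subunit Orc1 had 9.92 and 10.7 CPM in the ΔNFκB DSS mice against 5.43 and 4.30 CPM in the ΔNFκB untreated mice. Its log2 fold change was 1.08 ± 0.22 there and 0.18 ± 0.22 in WT mice, and that of Orc6, another subunit, was 0.79 ± 0.20 and 0.34 ± 0.20.

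The 6 helicase subunits Mcm2 to Mcm7, which form 1 ring, all rose in ΔNFκB mice, with log2 fold changes of 0.87 for Mcm7 to 1.47 for Mcm3. That range lies within the 0.79 to 1.52 of all 10 licensing genes. Mcm4 (chr16:15623897-15637400) had 48.0 and 40.6 CPM in the ΔNFκB DSS mice against 17.1 and 19.5 CPM in the ΔNFκB untreated mice. In WT, Mcm4 had 35.4 and 36.2 CPM in the DSS mice against 24.5 and 32.5 CPM in the untreated mice. The groups did not overlap in either genotype, but in WT the untreated mice lay further apart than the nearest mice of the WT groups. The log2 fold change of Mcm4 was 1.28 ± 0.17 in ΔNFκB mice (adjusted p = 0.00106) and 0.33 ± 0.16 in WT mice (adjusted p = 0.15). None of the 6 subunits was called in WT mice, where log2 fold changes ran between -0.21 for Mcm7 and 0.44 for Mcm3 and 1 of 6, Mcm3, had an unadjusted p under 0.05.

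Mcm6, whose promoter carries 3 of the matches shown, had 76.2 and 60.6 CPM in the ΔNFκB DSS mice against 33.3 and 33.2 CPM in the ΔNFκB untreated mice. In WT, Mcm6 had 52.6 and 48.2 CPM in the DSS mice against 36.4 and 46.5 CPM in the untreated mice. Its log2 fold change was 1.04 ± 0.16 in ΔNFκB mice and 0.28 ± 0.16 in WT mice. Mcm5, with matches on both strands, had 56.4 and 44.0 CPM in the ΔNFκB DSS mice against 19.8 and 23.6 CPM in the ΔNFκB untreated mice, a log2 fold change of 1.21 ± 0.18, and was at 0.15 ± 0.18 in WT mice.

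Of the 6 helicase activation genes, 4 rose in ΔNFκB mice: Mcm10, Cdc45, Gins1 and Gins2. Mcm10 (chr2:4989714-5012791), which helps start unwinding, had 25.8 and 23.2 CPM in the ΔNFκB DSS mice against 8.43 and 8.04 CPM in the ΔNFκB untreated mice. In WT, Mcm10 had 14.7 and 16.0 CPM in the DSS mice against 12.6 and 15.0 CPM in the untreated mice. The ΔNFκB groups were far apart and the WT groups overlapped. The log2 fold change of Mcm10 was 1.57 ± 0.16 in ΔNFκB mice (adjusted p = 0.000417) and 0.15 ± 0.16 in WT mice (adjusted p = 0.48). Cdc45, part of the active helicase, had 15.6 and 13.8 CPM in the ΔNFκB DSS mice against 4.17 and 6.01 CPM in the ΔNFκB untreated mice. In WT, Cdc45 had 8.58 and 7.68 CPM in the DSS mice against 8.53 and 13.9 CPM in the untreated mice. WT untreated mouse 2 reached the level of the ΔNFκB DSS mice, and the log2 fold change of Cdc45 was 1.53 ± 0.28 in ΔNFκB mice and -0.47 ± 0.27 in WT mice.

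The 4 GINS subunits, which form 1 complex, did not move alike. Gins1 had a log2 fold change of 1.33 ± 0.31 and Gins2 of 1.09 ± 0.24 with DSS in ΔNFκB mice, and both rose. Gins3 was at 0.47 ± 0.35 and Gins4 at -0.07 ± 0.20, and neither was called. Gins4 had 10.0 and 10.4 CPM in the ΔNFκB DSS mice against 9.13 and 12.3 CPM in the ΔNFκB untreated mice. In WT, Gins4 had 10.99 and 10.06 CPM in the DSS mice against 13.2 and 15.2 CPM in the untreated mice, a log2 fold change of -0.43 ± 0.19 (adjusted p = 0.109) that stood at 0.18 with epithelial scaling. Gins1 and Gins3 had under 5 CPM in each mouse, and 67.3% of the exon bases of Gins2 overlap exons of other genes, so its counts are uncertain. No helicase activation gene was called in WT mice by edgeR, and 0 of 6 had an unadjusted p under 0.05.

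Among the 5 polymerase and primase genes, Pola2 and Pole rose in ΔNFκB mice. Pola2 (chr19:5940542-5964202), the accessory subunit of polymerase alpha, had 21.9 and 19.3 CPM in the ΔNFκB DSS mice against 11.2 and 10.6 CPM in the ΔNFκB untreated mice. In WT, Pola2 had 19.8 and 20.7 CPM in the DSS mice against 9.64 and 10.8 CPM in the untreated mice. Its log2 fold change was 0.92 ± 0.15 in ΔNFκB mice (adjusted p = 0.00263) and 0.98 ± 0.15 in WT mice (adjusted p = 0.00228), with a difference of -0.06 ± 0.21 (adjusted p = 0.861). Pola1, the catalytic subunit of the same enzyme, had 33.1 and 29.7 CPM in the ΔNFκB DSS mice against 28.5 and 28.1 CPM in the ΔNFκB untreated mice. In WT, Pola1 had 24.9 and 23.7 CPM in the DSS mice against 33.7 and 40.7 CPM in the untreated mice. Pola1 thus fell by 0.62 ± 0.14 on the log2 scale in WT mice (adjusted p = 0.00984) and was at 0.15 ± 0.14 in ΔNFκB mice. The WT value was 0.0008 with epithelial scaling, and the call was also lost without WT untreated mouse 2 and without WT DSS mouse 2.

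Prim1, the primase subunit that makes the RNA primer, also fell in WT mice, by 0.67 ± 0.20 with DSS (adjusted p = 0.0314). It had 10.6 and 11.8 CPM in the ΔNFκB DSS mice against 8.504 and 9.502 CPM in the ΔNFκB untreated mice. In WT, Prim1 had 9.26 and 7.04 CPM in the DSS mice against 11.9 and 14.0 CPM in the untreated mice. The WT log2 fold change of Prim1 was -0.06 with epithelial scaling and -0.54 with a term for sex, and neither was called. Pole, the catalytic subunit of the leading strand polymerase, rose in ΔNFκB mice by 0.93 ± 0.19 and had a log2 fold change of 0.04 ± 0.18 in WT mice. Pold1, the catalytic subunit of polymerase delta, was not called in either genotype, at 0.62 ± 0.25 in ΔNFκB mice and 0.63 ± 0.25 in WT mice.

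The 7 genes of the clamp, the clamp loader and single-strand binding had 2 members that rose in ΔNFκB mice, Rfc5 and Rpa1, and 3 that fell in WT mice. Pcna (chr2:132249162-132253314), the sliding clamp, had 62.1 and 64.6 CPM in the ΔNFκB DSS mice against 48.9 and 60.3 CPM in the ΔNFκB untreated mice. In WT, Pcna had 47.4 and 42.5 CPM in the DSS mice against 64.9 and 91.7 CPM in the untreated mice. WT untreated mouse 2 held the highest value and both WT DSS mice the lowest. Pcna fell with DSS in WT mice by 0.80 ± 0.18 on the log2 scale (adjusted p = 0.0103), and its log2 fold change in ΔNFκB mice was 0.22 ± 0.18 (adjusted p = 0.376). With epithelial scaling the WT value was -0.17 and no longer called.

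The clamp loader subunits Rfc2 to Rfc5 spread out. Rfc5 (chr5:117378103-117389047) had 23.0 and 21.6 CPM in the ΔNFκB DSS mice against 8.58 and 10.8 CPM in the ΔNFκB untreated mice. In WT, Rfc5 had 15.4 and 15.9 CPM in the DSS mice against 13.0 and 13.4 CPM in the untreated mice. Its log2 fold change was 1.20 ± 0.16 in ΔNFκB mice (adjusted p = 0.00117) and 0.25 ± 0.16 in WT mice (adjusted p = 0.252). Rfc3 had 11.8 and 9.88 CPM in the ΔNFκB DSS mice against 7.64 and 11.3 CPM in the ΔNFκB untreated mice. In WT, Rfc3 had 5.98 and 8.32 CPM in the DSS mice against 11.6 and 14.2 CPM in the untreated mice, and fell by 0.85 ± 0.26 (adjusted p = 0.034). The WT value of Rfc3 was -0.22 with epithelial scaling and -0.69 with a term for sex, and neither was called. Rfc4 had 10.0 and 7.51 CPM in the ΔNFκB DSS mice against 6.69 and 6.42 CPM in the ΔNFκB untreated mice.

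Rfc4 had 6.85 and 5.12 CPM in the WT DSS mice against 9.09 and 9.98 CPM in the WT untreated mice, and fell there by 0.67 ± 0.23 (adjusted p = 0.0488). That value was -0.07 with epithelial scaling and -0.60 with a term for sex, and neither was called. Rfc2, the remaining subunit, was at 0.07 ± 0.14 in ΔNFκB mice and -0.08 ± 0.14 in WT mice, and its levels lay between 18.9 and 23.6 CPM in all 8 mice. Rpa1, the large subunit of the single-strand binding protein, rose in ΔNFκB mice by 0.52 ± 0.12 (adjusted p = 0.0137) and was at 0.30 ± 0.12 in WT mice. Rpa2, its middle subunit, was not called in either genotype, at 0.73 ± 0.26 in ΔNFκB mice and -0.04 ± 0.26 in WT mice.

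Both genes of Okazaki fragment maturation rose in ΔNFκB mice. Fen1 (chr19:10199132-10204169), which trims the flap at the fragment's end, had 31.3 and 24.0 CPM in the ΔNFκB DSS mice against 8.03 and 8.85 CPM in the ΔNFκB untreated mice. In WT, Fen1 had 17.3 and 20.8 CPM in the DSS mice against 15.0 and 18.4 CPM in the untreated mice. The WT groups overlapped, and the log2 fold change was 1.71 ± 0.20 in ΔNFκB mice (adjusted p = 0.000636) and 0.19 ± 0.19 in WT mice (adjusted p = 0.455). Of the exon bases of Fen1, 84.2% overlap exons of other genes, so its counts are uncertain. Lig1, the ligase that seals the fragments, had 45.5 and 41.2 CPM in the ΔNFκB DSS mice against 21.7 and 22.6 CPM in the ΔNFκB untreated mice. In WT, Lig1 had 37.0 and 37.6 CPM in the DSS mice against 20.9 and 28.2 CPM in the untreated mice. Lig1 rose in both, by 0.97 ± 0.16 in ΔNFκB mice (adjusted p = 0.00251) and 0.60 ± 0.16 in WT mice (adjusted p = 0.0188).

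The 4 nucleotide supply genes all rose in ΔNFκB mice, and in WT mice 1 rose and 1 fell. Rrm2 (chr12:24708241-24714146), the small subunit of ribonucleotide reductase, had 52.4 and 60.2 CPM in the ΔNFκB DSS mice against 9.69 and 12.8 CPM in the ΔNFκB untreated mice. In WT, Rrm2 had 36.7 and 42.3 CPM in the DSS mice against 14.1 and 22.1 CPM in the untreated mice. DSS mice lay above untreated mice in both genotypes, and the ΔNFκB DSS mice lay highest. Rrm2 rose by 2.32 ± 0.23 on the log2 scale in ΔNFκB mice (adjusted p = 0.000391) and by 1.12 ± 0.22 in WT mice (adjusted p = 0.0068). Rrm1 (chr7:102441695-102469771), the large subunit, had 90.0 and 94.2 CPM in the ΔNFκB DSS mice against 47.2 and 49.2 CPM in the ΔNFκB untreated mice. In WT, Rrm1 had 58.9 and 60.7 CPM in the DSS mice against 68.0 and 88.7 CPM in the untreated mice. The subunits differed in WT mice, where Rrm1 had a log2 fold change of -0.39 ± 0.13 (adjusted p = 0.0517), and in ΔNFκB mice Rrm1 rose by 0.93 ± 0.14 (adjusted p = 0.00157).

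Tyms (chr5:30058202-30073617), which makes thymidylate, was the 1 gene called in opposite directions. It had 32.2 and 32.0 CPM in the ΔNFκB DSS mice against 24.0 and 23.2 CPM in the ΔNFκB untreated mice. In WT, Tyms had 21.9 and 23.2 CPM in the DSS mice against 30.4 and 33.4 CPM in the untreated mice. Tyms rose by 0.44 ± 0.12 in ΔNFκB mice (adjusted p = 0.0219) and fell by 0.50 ± 0.12 in WT mice (adjusted p = 0.014). With epithelial scaling Tyms was at 0.42 in ΔNFκB mice and 0.12 in WT mice, and was called in neither. With a term for sex it was called in neither genotype, at 0.58 in ΔNFκB mice and -0.43 in WT mice. Tk1, thymidine kinase, had 23.1 and 19.4 CPM in the ΔNFκB DSS mice against 9.84 and 10.4 CPM in the ΔNFκB untreated mice. In WT, Tk1 had 21.3 and 19.0 CPM in the DSS mice against 18.5 and 21.3 CPM in the untreated mice, so that the ΔNFκB untreated mice alone stood apart.

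**Figure D2:**
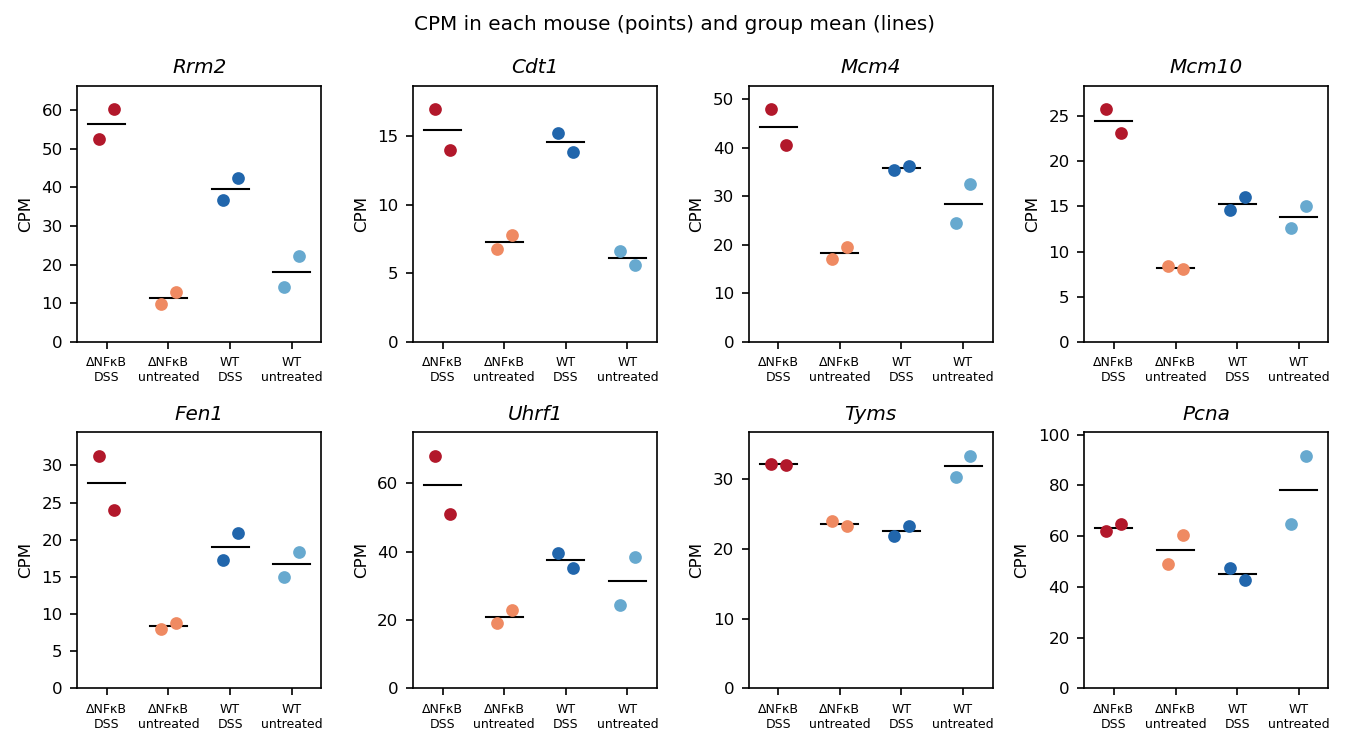
Points give the CPM of 8 genes in each mouse and lines the mean of the 2 mice of a group, with all axes starting at 0. Rrm2 and Cdt1 were higher in DSS mice of both genotypes, Mcm4, Mcm10, Fen1 and Uhrf1 were lowest in ΔNFκB untreated mice, and Tyms and Pcna were lowest in WT DSS mice.

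The 3 chromatin copying genes rose in ΔNFκB mice. Uhrf1, which brings the maintenance DNA methyltransferase to new DNA, had 68.1 and 51.0 CPM in the ΔNFκB DSS mice against 19.1 and 22.8 CPM in the ΔNFκB untreated mice. In WT, Uhrf1 had 39.7 and 35.2 CPM in the DSS mice against 24.6 and 38.4 CPM in the untreated mice. Uhrf1 rose by 1.51 ± 0.23 in ΔNFκB mice (adjusted p = 0.00203) and was at 0.25 ± 0.23 in WT mice. Chaf1a, the large subunit of the histone chaperone CAF-1, had 32.5 and 26.3 CPM in the ΔNFκB DSS mice against 8.66 and 10.8 CPM in the ΔNFκB untreated mice. In WT, Chaf1a had 20.4 and 20.3 CPM in the DSS mice against 10.6 and 13.6 CPM in the untreated mice. It rose by 1.596 ± 0.194 in ΔNFκB mice (adjusted p = 0.000763) and by 0.75 ± 0.19 in WT mice (adjusted p = 0.0177), and 52.5% of its exon bases overlap exons of other genes, which makes its counts uncertain. Chaf1b, the middle subunit, rose in ΔNFκB mice by 0.95 ± 0.26 and was at 0.59 ± 0.25 in WT mice.

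All 3 genes of G1/S control rose in ΔNFκB mice. Ccne1 (chr7:38097984-38107534), cyclin E1, had 8.39 and 8.85 CPM in the ΔNFκB DSS mice against 2.44 CPM in each ΔNFκB untreated mouse. In WT, Ccne1 had 6.65 and 8.14 CPM in the DSS mice against 2.71 and 4.49 CPM in the untreated mice. It rose by 1.82 ± 0.29 in ΔNFκB mice (adjusted p = 0.00224) and by 1.03 ± 0.27 in WT mice (adjusted p = 0.0211). Ccne2, cyclin E2, had 14.6 and 15.0 CPM in the ΔNFκB DSS mice against 6.61 and 6.42 CPM in the ΔNFκB untreated mice. In WT, Ccne2 had 7.42 and 6.03 CPM in the DSS mice against 5.34 and 12.1 CPM in the untreated mice, whose spread covered both WT DSS mice. Ccne2 rose by 1.18 ± 0.34 in ΔNFκB mice (adjusted p = 0.0271), and 17.4% of its exon bases overlap exons of other genes. E2f1, the transcription factor, rose by 1.11 ± 0.27 in ΔNFκB mice (adjusted p = 0.0148) and was at 0.39 ± 0.27 in WT mice.

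**Figure D3:**
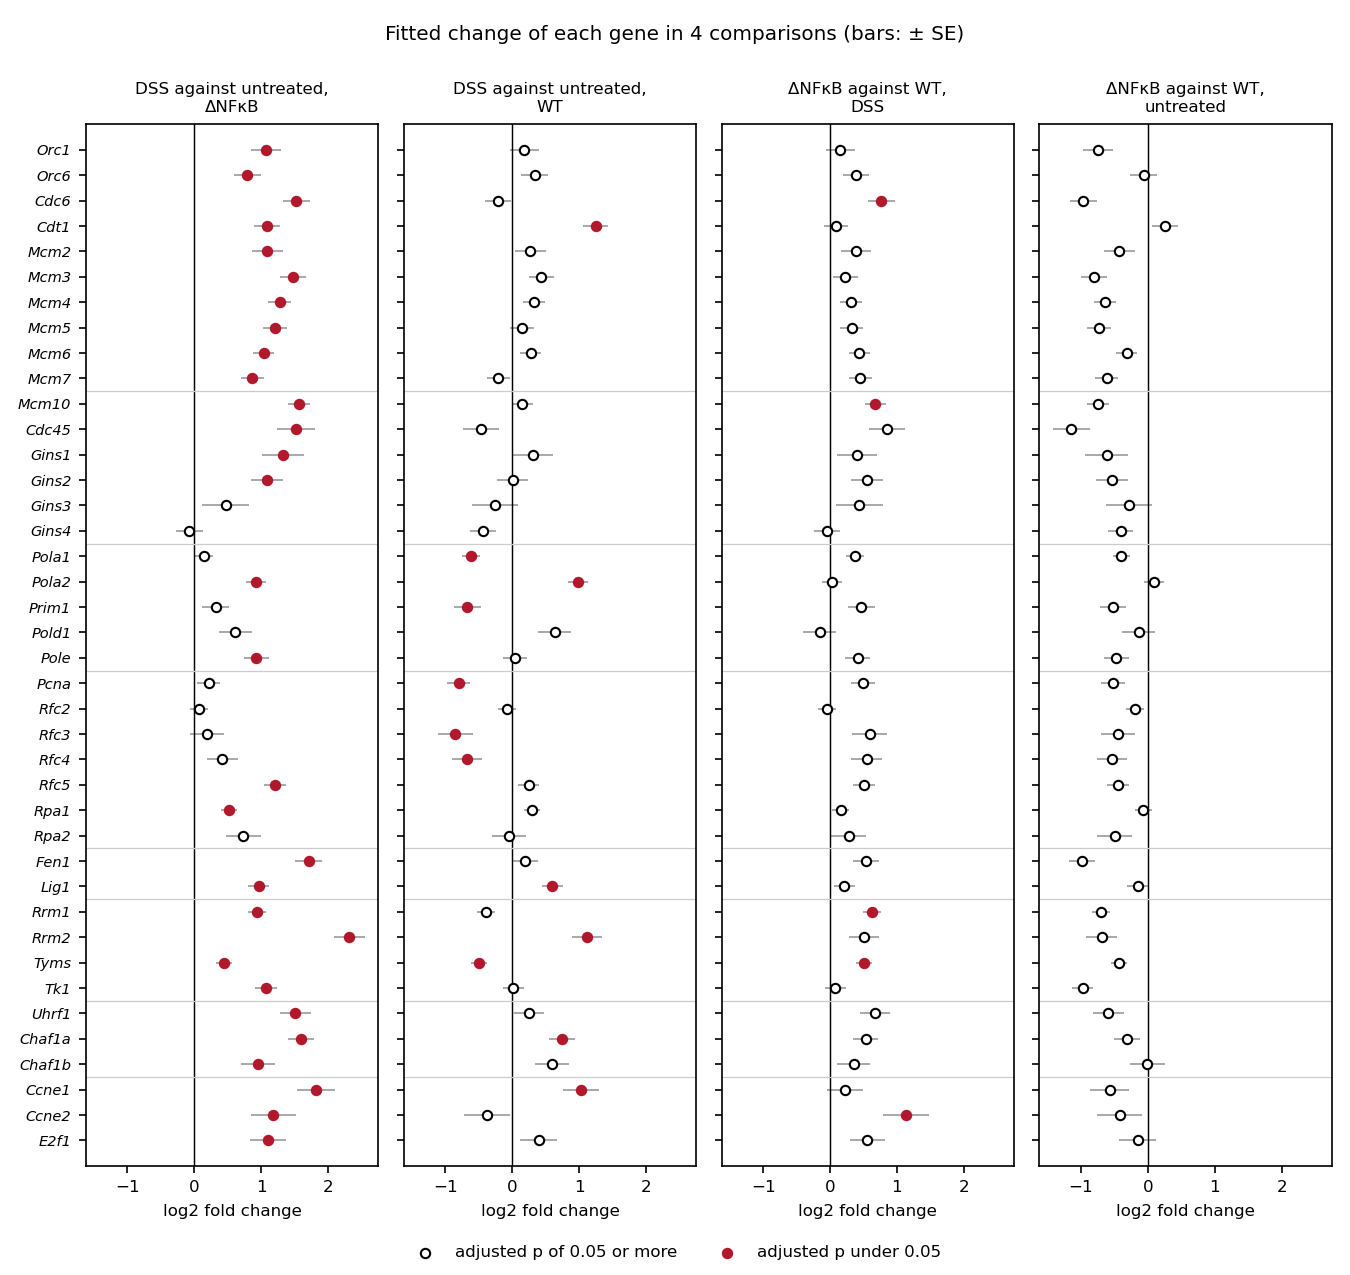
Each panel gives the log2 fold change of the 40 genes in 1 comparison, with bars of 1 SE; red points have an adjusted p under 0.05 (edgeR) and open points do not. Red points number 30 with DSS in ΔNFκB mice, 12 with DSS in WT mice, 5 for ΔNFκB against WT after DSS and 0 for ΔNFκB against WT untreated; with libraries scaled to epithelial markers, 11 of the 40 turn positive with DSS in WT mice, 17 turn negative for ΔNFκB against WT after DSS and 7 turn positive for ΔNFκB against WT untreated.

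After DSS, 5 of the 40 genes were higher in ΔNFκB mice than in WT mice and 0 lower: Cdc6, Mcm10, Rrm1, Tyms and Ccne2. Of all genes tested, 20% differed, 8.32% higher and 11.7% lower, so the 12.5% of the 40 genes stands a little above the share of all genes that were higher. The largest difference was that of Ccne2, with 14.6 and 15.0 CPM in ΔNFκB DSS mice against 7.42 and 6.03 CPM in WT DSS mice, a log2 fold change of 1.14 ± 0.34 (edgeR adjusted p = 0.0488). Cdc6 was higher by 0.77 ± 0.20 (adjusted p = 0.0311) and Mcm10 by 0.67 ± 0.16 (adjusted p = 0.0224). Rrm1 was higher by 0.62 ± 0.13 (adjusted p = 0.0173) and Tyms by 0.51 ± 0.12 (adjusted p = 0.0232). In 31 of the 40 genes both ΔNFκB mice were above both WT mice, where 68.1% of all genes did not overlap in either direction, and the median log2 fold change was 0.43, against 0.03 for all genes. The genes nearest to 0 were Pola2 at 0.03 ± 0.15, Gins4 at -0.04 ± 0.20, Rfc2 at -0.05 ± 0.14, Tk1 at 0.08 ± 0.16 and Cdt1 at 0.09 ± 0.18.

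These 5 calls were not stable. Leaving out any 1 of the 4 DSS libraries left 0 calls, with 5 to 17 genes at an unadjusted p under 0.05, and leaving out either WT untreated library gave 8. In the fit as reported 18 genes had an unadjusted p under 0.05, DESeq2 called 2 and limma-voom 4. The epithelial markers summed to 10940 and 11520 CPM in ΔNFκB DSS mice against 8692 and 8089 CPM in WT DSS mice. Scaled to them, 0 of the 40 genes were called and 3 had an unadjusted p under 0.05, while 1.2% of all genes were called higher and 20.6% lower. The median of the 40 was then 0.0086 against -0.39 for all genes, with 20 genes above 0 and 20 below, where 37 were above 0 in the fit as reported.

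Without DSS, 0 of the 40 genes differed between ΔNFκB and WT mice by edgeR, and 0.388% of all genes did, 0.0399% higher and 0.348% lower. Of the 40 log2 fold changes, 38 were below 0, with a median of -0.48 against 0.03 for all genes, and 20 of the 40 had an unadjusted p under 0.05. Tk1 came nearest to the threshold, with 9.84 and 10.4 CPM in ΔNFκB untreated mice against 18.5 and 21.3 CPM in WT untreated mice, a log2 fold change of -0.98 ± 0.16 (adjusted p = 0.0593). Cdc45 had the lowest value at -1.14 ± 0.28 (adjusted p = 0.15). The groups did not overlap for 30 genes, of which 1, Cdt1, was higher in ΔNFκB mice, where 45.2% of all genes did not overlap in either direction. DESeq2 called 5 of the 40 genes, all lower, and limma-voom 0, and the shares of all genes called by these tools are not given here. By Y-linked genes both ΔNFκB untreated mice and WT untreated mouse 2 were male and WT untreated mouse 1 was female. Sex and genotype can therefore not be fully told apart in this comparison.

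The response to DSS differed between the genotypes for 18 of the 40 genes, each with the larger value in ΔNFκB mice. Of all genes tested, 17.7% differed in this way, 8.63% with the larger value in ΔNFκB mice and 9.07% with the smaller. The median difference was 0.94 on the log2 scale, against -0.05 for all genes. All 4 nucleotide supply genes were among the 18, with Rrm1 at 1.32 ± 0.19 (adjusted p = 0.00772) and Rrm2 at 1.20 ± 0.32 (adjusted p = 0.0377). So were 5 of the 6 subunits Mcm2 to Mcm7, with differences of 0.76 for Mcm6 to 1.07 for Mcm7, and Mcm2 at 0.81 ± 0.32 (adjusted p = 0.115) was not. Cdc45 had the largest difference at 2.00 ± 0.39 (adjusted p = 0.0159), followed by Cdc6 at 1.73 ± 0.28 (adjusted p = 0.0103) and Fen1 at 1.52 ± 0.27 (adjusted p = 0.0131). No G1/S control gene was called by edgeR, though their differences were 0.71 to 1.56 and 1 of 3, Ccne2, had an unadjusted p under 0.05. Differences below 0 were those of Cdt1, Pola2 and Pold1, at -0.16 to -0.02.

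Across the 40 genes 27 had an unadjusted p under 0.05 for this difference, and DESeq2 called 16 and limma-voom 17. The count moved with single libraries: it was 6 without WT untreated mouse 2, 8 without WT DSS mouse 1 and 5 without WT DSS mouse 2. It was 4 without ΔNFκB untreated mouse 1, 11 without ΔNFκB untreated mouse 2, 6 without ΔNFκB DSS mouse 1 and 4 without ΔNFκB DSS mouse 2. Scaled to epithelial markers 2 genes were called, Cdc45 and Rrm1, while 1.44% of all genes were called with the larger value in ΔNFκB mice and 24.9% with the smaller. The median difference was then 0.30 against -0.68 for all genes, and 9 of the 40 differences were below 0.

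A wider set of 69 genes of the same processes was counted as well. With DSS in ΔNFκB mice, 37 of the 69 rose and 6 fell, against 13 and 7 in WT mice. The share that rose was 53.6% in ΔNFκB mice, where 16.2% of all genes rose, and 18.8% in WT mice, near the 17.3% of all genes. After DSS 17 of 69 (24.6%, against 8.32% of all genes) were higher in ΔNFκB than in WT mice and 0 lower, with 34 at an unadjusted p under 0.05. Scaled to epithelial markers, none of the 9 with the smallest p, 3 from each list, kept that call. Without DSS 1, the S phase cyclin Ccna2, was lower. The DSS responses of 19 (27.5%, against 8.63% of all genes) differed, each larger in ΔNFκB mice, with 31 at an unadjusted p under 0.05. Among 32 other replication factors, 21 rose and 1 fell in ΔNFκB mice and 6 rose and 2 fell in WT mice. Of 12 other nucleotide and chromatin factors, 6 rose and 1 fell in ΔNFκB mice and 1 rose and 2 fell in WT mice. The 25 other G1/S regulators had 10 higher and 4 lower in ΔNFκB mice, and 6 higher and 3 lower in WT mice.

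Within the other replication factors, the checkpoint adaptor Clspn had 22.3 and 21.4 CPM in the ΔNFκB DSS mice against 6.85 and 7.72 CPM in the ΔNFκB untreated mice. It rose by 1.58 ± 0.18 there (edgeR adjusted p = 0.000549) and by 0.52 ± 0.17 in WT mice (adjusted p = 0.0437). Dbf4, the activator of the kinase that fires origins, rose by 1.16 ± 0.13 in ΔNFκB mice (adjusted p = 0.000575) and was at 0.11 ± 0.13 in WT mice. After DSS Dbf4 was higher in ΔNFκB than in WT mice by 0.64 ± 0.13 (adjusted p = 0.0139), the Cdt1 inhibitor Gmnn by 0.77 ± 0.17 (adjusted p = 0.0191) and the polymerase delta subunit Pold3 by 0.50 ± 0.11 (adjusted p = 0.0213). Scaled to epithelial markers, these differences were 0.22 for Dbf4, 0.35 for Gmnn and 0.08 for Pold3, and none was called. Chtf18, of an alternative clamp loader, rose in both genotypes, by 1.62 ± 0.20 in ΔNFκB mice and 1.10 ± 0.19 in WT mice. So did the helicase Recql4, by 1.21 ± 0.24 in ΔNFκB mice and 1.27 ± 0.24 in WT mice. Rpa3, the small single-strand binding subunit, fell in WT mice by 0.98 ± 0.19 (adjusted p = 0.00563) and was at 0.03 ± 0.19 in ΔNFκB mice. The WT value of Rpa3 was -0.35 with epithelial scaling and no longer called.

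Of the nucleotide and chromatin factors, the chromatin remodeller Hells rose by 1.43 ± 0.18 in ΔNFκB mice (adjusted p = 0.000874) and was at 0.08 ± 0.18 in WT mice. After DSS Hells was higher in ΔNFκB than in WT mice by 0.87 ± 0.18 and the histone chaperone Asf1b by 0.54 ± 0.16, and Asf1b had risen by 0.99 ± 0.16 in ΔNFκB mice. With epithelial scaling the differences after DSS were 0.46 for Hells and 0.12 for Asf1b, and neither was called. Samhd1, which breaks down deoxynucleotides and is also abundant in immune cells, rose by 1.47 ± 0.26 in ΔNFκB mice, with 183.4 and 333.2 CPM in the DSS mice against 103.8 and 83.2 CPM in the untreated mice. With a term for sex that value of Samhd1 was 1.13 and not called. Dut, the dUTPase, rose in WT mice by 0.85 ± 0.18. Shmt1, a folate enzyme, fell in WT mice by 0.92 ± 0.13, a value that was -0.30 and no longer called with epithelial scaling. Shmt1 was at 0.0071 in ΔNFκB mice, where it was not called, and after DSS it was higher in ΔNFκB than in WT mice by 0.55 ± 0.13. Scaled to epithelial markers, that last difference was 0.13 and not called.

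The E2F family held the smallest p of the wider set. E2f8, an atypical E2F that represses, had 41.6 and 36.6 CPM in the ΔNFκB DSS mice against 10.0 and 9.83 CPM in the ΔNFκB untreated mice. In WT, E2f8 had 22.5 and 20.6 CPM in the DSS mice against 15.4 and 16.8 CPM in the untreated mice. It rose by 1.98 ± 0.14 in ΔNFκB mice (adjusted p = 0.000122) and 0.42 ± 0.14 in WT mice (adjusted p = 0.0457), and after DSS it was higher in ΔNFκB mice by 0.86 ± 0.14 (adjusted p = 0.00592). E2f2, an activator, rose by 2.09 ± 0.22 in ΔNFκB mice and 1.32 ± 0.21 in WT mice, and E2f7, the other atypical member, by 1.93 ± 0.20 and 1.35 ± 0.20. E2f4, a mainly repressive member, rose by 1.05 ± 0.12 in ΔNFκB mice and by 0.82 ± 0.12 in WT mice. The pocket protein Rbl1 was higher in ΔNFκB than in WT mice after DSS by 0.65 ± 0.11 (adjusted p = 0.00718). Scaled to epithelial markers, the differences after DSS were 0.45 for E2f8 and 0.23 for Rbl1, and neither was called.

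Ccna2 is the cyclin of S phase and mitosis. It had 120.1 and 139.3 CPM in the ΔNFκB DSS mice against 39.45 and 49.95 CPM in the ΔNFκB untreated mice. In WT, Ccna2 had 85.3 and 71.9 CPM in the DSS mice against 100.7 and 99.1 CPM in the untreated mice. It rose with DSS in ΔNFκB mice by 1.54 ± 0.15, was at -0.35 ± 0.15 in WT mice, and fell by 1.16 ± 0.15 in ΔNFκB against WT untreated mice (adjusted p = 0.0298).

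Markers of mitosis rose beside the replication genes in ΔNFκB mice and not in WT mice. Of 20 mitosis markers, 19 rose and 0 fell with DSS in ΔNFκB mice, where 16.2% of all genes rose. In WT mice 0 rose and 10 fell by edgeR, with 10 at an unadjusted p under 0.05, and 18.8% of all genes fell. Their summed level was 1673 and 1856 CPM in the ΔNFκB DSS mice against 767.9 and 854.5 CPM in the ΔNFκB untreated mice. In WT it was 1126 and 1042 CPM in the DSS mice against 1575 and 1618 CPM in the untreated mice. The WT mitosis sums did not overlap, while the WT sums of the replication genes did, and the median log2 fold change in WT mice was -0.46 for the mitosis markers and 0.16 for the replication genes. That of the epithelial markers was -0.56, and values of the mitosis markers under epithelial scaling are not given here. After DSS 16 of the 20 were higher in ΔNFκB than in WT mice, against 8.32% of all genes. Without DSS 10 of the 20 were lower, against 0.348% of all genes. The DSS responses of all 20 differed, each larger in ΔNFκB mice, against 8.63% of all genes.

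Markers of other cells moved too, and their part in these results was not tested. The 11 epithelial markers had 1 higher and 0 lower with DSS in ΔNFκB mice, with 3 at an unadjusted p under 0.05, and 0 higher and 7 lower in WT mice. The 10 smooth muscle markers fell in both genotypes and summed to 1029 and 1015 CPM in ΔNFκB DSS mice against 6222 and 6399 CPM in ΔNFκB untreated mice. In WT they summed to 1491 and 1178 CPM in DSS mice against 7744 and 3927 CPM in untreated mice, so that WT untreated mouse 2 stood apart from the other 3 untreated mice. All 10 neutrophil markers rose in both genotypes, to sums of 81.7 and 83.9 CPM in ΔNFκB DSS mice and 354.8 and 440.3 CPM in WT DSS mice, against at most 9.61 CPM in any untreated mouse. The 8 fibroblast markers were all lower in ΔNFκB DSS than in WT DSS mice, with sums of 708.7 and 560.5 CPM against 1852 and 2814 CPM. With DSS 6 of these 8 fell and 0 rose in ΔNFκB mice, and 2 rose and 2 fell in WT mice. Of all genes tested, 16.2% rose and 19.2% fell with DSS in ΔNFκB mice, and 17.3% rose and 18.8% fell in WT mice. After DSS 11.7% of all genes were lower in ΔNFκB than in WT mice.

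The 8 B and plasma cell markers set the ΔNFκB DSS mice apart from each other, with sums of 98.1 CPM in mouse 1 and 6.17 CPM in mouse 2, against 255.7 and 107.7 CPM in ΔNFκB untreated mice. In WT they summed to 180.9 and 124.4 CPM in DSS mice against 196.9 and 273 CPM in untreated mice. ΔNFκB DSS mouse 1 was also the mouse with the highest value of 25 of the 40 genes, and without it edgeR called 22 of the 40 with DSS in ΔNFκB mice, all higher. Without ΔNFκB DSS mouse 2 it called 27.

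**Figure D4:**
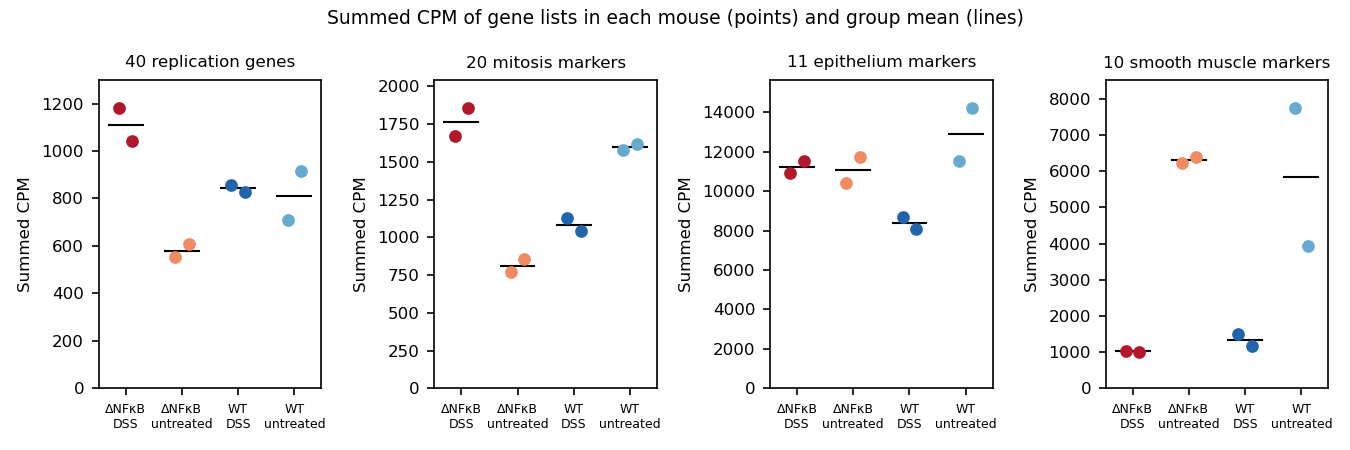
Points give the summed CPM of 4 gene lists in each mouse and lines the mean of the 2 mice of a group, with all axes starting at 0. The replication genes and the mitosis markers were both lowest in ΔNFκB untreated mice and highest in ΔNFκB DSS mice, while the epithelial markers were lowest in WT DSS mice and the smooth muscle markers were low in all 4 DSS mice.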

How the data were processed

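Total RNA libraries (Illumina TruSeq Total RNA kit, HiSeqX, paired reads of 150 bases) came from distal colon of 8 mice, and groups were taken from the labels. HISAT2 2.1, SAMtools 1.8, featureCounts and Subread 1.6.2 with the mm10 genome are named, per the submitters' processing notes. The annotation release, the strand setting and how multiply matching reads were handled were not given in the sources used here. Both deposited tables, one with symbols and one with Ensembl IDs, hold estimated counts that the authors did not normalize, and 18.8% of the nonzero values are fractional, 41 of 320 among the 40 genes. Whole counts had been assumed in the plan, so values were rounded to whole numbers. Both tables have 55536 lines and 0 differing values. The 115 symbols on several lines, none of the 40 genes among them, were summed. All 55450 identifiers found in the GENCODE annotation of GRCm38 carried the same symbol there, which also gave the positions of genes.

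Genes were filtered with filterByExpr (17522 of 30454 with a count) and scaled with TMM factors of 0.882 to 1.15. A single quasi-likelihood model in edgeR with a mean for each of 4 groups and 4 residual degrees of freedom was used for log2 fold changes and two-sided F tests, with Benjamini-Hochberg adjustment over all genes and 0.05 as the threshold. An SE was taken as the size of the log2 fold change over the square root of its F. Biological variation had a coefficient of 17.1%, with 4.28 prior degrees of freedom. Scripts were tested on simulated data. The tools were edgeR 4.0.16, DESeq2 1.42.0 and limma 3.58.1 under R 4.3.3. No permutation test is given, since the smallest exact p for 2 against 2 mice is 0.333. The p-values rest on the spread among mice within groups, pooled over groups and genes. A count of 3 equals 0.177 to 0.325 CPM.

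The 40 genes, the lists, the tests and the rule for named genes were chosen with earlier results of these data known. By that rule all 40 are named, with values in each mouse for the smallest p of each role group in both DSS comparisons and after DSS, and for genes called against the median of the 40. Orc1, Mcm5, Mcm6, Cdc45 and Tk1 were added after their values were seen. From each wider list the 3 smallest p of the same comparisons are named, except 1 gene that is not reported here. Promoters of Ccne1 and E2f1 had been planned and are not printed, and neither window holds the E2F-type letters. The RefSeq start of E2f1 lies 466 bases inside the annotated gene and that of Ccne1 44 bases inside. Promoters of Mcm5 and Orc1 were added after the matches were seen, so the printed set leans towards windows with the letters. Protein sequences were not used here. Each library is taken as 1 mouse, which the labels imply without saying so. Alternatives covered scaling, filters, tools, left-out libraries, a sex term and a replicate block.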

Additional observations from a re-analysis of the deposited data

Results flagged for a closer look

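The DSS effect differed between the genotypes, by edgeR's test of the difference itself, for 18 of the 40 genes, and each had the larger value in ΔNFκB mice. Of all genes tested, 8.63% were called with the larger value in ΔNFκB mice and 9.07% with the smaller. The values that follow are the log2 fold change with DSS in ΔNFκB mice minus that in WT mice. Among licensing genes the difference was 1.73 for Cdc6, 1.04 for Mcm3, 0.95 for Mcm4, 1.06 for Mcm5, 0.76 for Mcm6 and 1.07 for Mcm7. The helicase activation genes Cdc45 and Mcm10 had differences of 2.00 and 1.42. The polymerase genes Pola1 and Prim1 had 0.77 and 0.99, and the clamp and clamp loader genes Pcna and Rfc5 had 1.02 and 0.95. Fen1 had 1.52, and among nucleotide genes Rrm1 had 1.32, Rrm2 1.20, Tk1 1.05 and Tyms 0.94. The chromatin gene Uhrf1 had 1.26. Leaving out 1 library other than WT untreated mouse 1 left 4 to 11 genes called, and scaling to epithelial markers left 2 of the 18, Cdc45 and Rrm1. Groups of 2 mice allow no check for a single outlying mouse.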

How the results depend on the processing

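Shares of all genes called are given for the fit as reported and, for some comparisons, under epithelial scaling only. Results were recomputed under 20 alternatives. Of the members called, 19 of 30 kept their direction and call under all of them for DSS in ΔNFκB mice, 3 of 12 for DSS in WT mice (Cdt1, Pola2 and Rrm2), 0 of 5 after DSS and 1 of 18 for the difference of the DSS effects (Rrm1). Scaled to epithelial markers, the all-gene median log2 fold change was 0.61 for DSS in WT mice, -0.39 after DSS, 0.23 untreated and -0.68 for the difference. The members then had medians of 0.77, 0.0086, -0.27 and 0.30, with 23, 0, 0 and 2 called. Under it 11 members turned positive with DSS in WT mice, 17 turned negative after DSS, 7 turned positive untreated and 6 turned negative for the difference. Those with DSS in WT mice included Gins4 at 0.18, Pola1 at 0.0008 and Tyms at 0.12, and those after DSS Pola1 at -0.046. The sex term gave a median of 1.30 for DSS in ΔNFκB mice and 1.09 for the difference, and called 9 genes after DSS and 3 untreated. DESeq2 called 7 with DSS in WT mice, 2 after DSS and 5 untreated. The fit of only the groups compared called 9 after DSS and gives no value for the difference, and without a filter 6 were called untreated.

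Leaving out each mouse in turn called 22 to 30 members for DSS in ΔNFκB mice, with medians of 0.90 to 1.17. For DSS in WT mice it called 3 to 11, with medians of 0.042 to 0.31. After DSS it called 0 to 8, with medians of 0.30 to 0.49, and untreated 0 to 4, with medians of -0.64 to -0.32. For the difference it called 4 to 23, with medians of 0.73 to 1.08. The lone mouse left in a group is assumed to vary like the other groups.

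Replicate numbers are shared between groups, but nothing says that they pair mice, and deviations of replicate 1 from group means correlated between groups at -0.126 to 0.244. With a replicate block the members called numbered 30 and 13 for DSS in ΔNFκB and WT mice, 5 after DSS, 0 untreated and 16 for the difference.

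The cause of these shifts was not tested. With 2 mice a group, SEs reached 0.34 for Ccne2 and 0.35 for Gins3 in ΔNFκB mice, and whether depth or the spread between mice set them was not tested.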
